A study of Mus musculus with 12 samples.

Results

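The 9 genes described here carry glucose into, out of and through the hepatocyte, and were taken by symbol from a liver count table of 24527 genes. They are Pcx, Pck1, Fbp1, G6pc and Slc37a4 of glucose production, the coactivator Ppargc1a, the glycolytic enzyme Pklr, the glucose transporter Slc2a2 and the glycogen enzyme Gys2. All 9 passed the filter on low counts, which kept 13204 genes. Messenger RNA had been sequenced from the livers of 12 mice aged 39 weeks, all offspring of CF1 dams and B6SJL sires. The 4 groups were females conceived naturally, females conceived with IVF by a Jackson Laboratory protocol (in vitro fertilization, where sperm and egg meet in a dish), and males of each kind, with n = 3 libraries each. The labels name no gene deletion or transgene, and no treatment after birth. The study asked how IVF offspring differ in the liver from naturally conceived offspring of the same sex.

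Gluconeogenesis makes new glucose from lactate, amino acids and glycerol, and the liver runs it between meals to hold blood glucose. It reverses glycolysis except at the irreversible steps, which pyruvate carboxylase, phosphoenolpyruvate carboxykinase, fructose bisphosphatase and glucose-6-phosphatase bypass. Glucagon and glucocorticoids raise transcription of Pck1 and G6pc, insulin lowers it, and the circadian clock also acts on the pathway. The labels used here give neither the time of day nor the feeding state at collection.

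The promoters of G6pc and Pck1 are shown because these 2 genes had the values that differed most between the female groups, and in opposite directions. RefSeq windows of 300 bases, from 250 before to 50 after an annotated start, were matched for 8 of the 9 genes, with Gys2 the one not matched. Both sequences are from GRCm38.p6, 5′ to 3′ on the plus strand. The first is chr11:101367466-101367765 and the second chr2:173152823-173153122. Capitals mark matches to 6 motifs searched on both strands.
G6pc: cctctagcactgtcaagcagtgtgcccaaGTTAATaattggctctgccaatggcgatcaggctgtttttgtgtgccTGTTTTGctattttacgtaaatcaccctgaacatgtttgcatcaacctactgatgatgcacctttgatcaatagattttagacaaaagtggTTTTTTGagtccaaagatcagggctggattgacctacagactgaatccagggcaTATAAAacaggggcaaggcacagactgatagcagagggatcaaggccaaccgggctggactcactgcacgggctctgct
Pck1: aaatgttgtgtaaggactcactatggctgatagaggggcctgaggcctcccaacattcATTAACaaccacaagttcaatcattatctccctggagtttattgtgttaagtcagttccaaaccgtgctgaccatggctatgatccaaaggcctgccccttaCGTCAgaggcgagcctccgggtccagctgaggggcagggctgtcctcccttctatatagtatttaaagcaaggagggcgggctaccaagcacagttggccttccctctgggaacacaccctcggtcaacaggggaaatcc
The cyclic AMP response element half-site was searched as TGACG and the insulin response element as TNTTTTG. The HNF1 half-site was searched as GTTAAT, the E-box as CACGTG, the glucocorticoid receptor half-site as TGTTCT and the core promoter box as TATAAA. In the G6pc window GTTAAT began 221 bases upstream of the start and TATAAA began 29 bases upstream. The insulin response letters matched at 174 bases (TGTTTTG) and again at 83 bases upstream (TTTTTTG). In the Pck1 window both matches lay on the reverse strand, where ATTAAC began 192 bases upstream and CGTCA began 90 bases upstream. Both windows thus held the HNF1 half-site letters, which 7.1% of 32851 RefSeq windows of this length hold. The insulin response letters, held by 18.6% of windows, were found for G6pc, and the cyclic AMP half-site, held by 20.8%, for Pck1. The core promoter box, held by 13.6%, was found for G6pc. The E-box (7.15%) and the glucocorticoid half-site (19.0%) matched neither window. These are matches of letters and say nothing of binding. Distances are from the RefSeq starts. GENCODE, the source of the gene positions below, begins both genes earlier within these windows, G6pc at 101367561 and Pck1 at 173153048. By GENCODE the TATAAA and TTTTTTG matches thus lie inside G6pc.

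Total counts ran from 6826534 to 27832271 per library. Levels are given in CPM, that is counts scaled to the library total after TMM correction. No count at all would allow a level of up to 0.439 CPM in the shallowest library and 0.108 CPM in the deepest, as far as counting error goes. Every gene of the 9 had at least 48 counts in every library. Libraries of one group differed far beyond counting noise, with a chi-square per degree of freedom of at least 80.7. IVF female replicate 1 and natural female replicate 2 were the shallowest and stood apart from the other 4 female libraries, with lower values for GC-rich genes. All 10 hepatocyte markers were detected, and summed to 87900 to 129000 CPM. The 5 pancreatic islet markers, Ins1 and Ins2 among them, were at 0 in all 12 libraries, and kidney markers summed to at most 1.62 CPM. Small intestine markers summed to 158 to 1440 CPM, nearly all of it from Apoa4 and Fabp2, which liver also makes. Islets, kidney and small intestine are other tissues that express Slc2a2 or the glucose production genes. In bulk tissue, fewer cells of a type and less RNA per cell cannot be told apart.

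Levels between genes were compared per kilobase of exon, on the CPM scale. Pck1 was the most abundant of the 9, with a mean of 550 CPM per kilobase over the 12 libraries, and it exceeded Fbp1, at 248, in 11 of 12. Fbp1 exceeded Pcx, at 107, in 12 of 12. Pcx exceeded G6pc, at 59.9, in 9 of 12. After these, most neighbours were not separated by their spread: G6pc exceeded Slc37a4, at 41.1, in 8 libraries, Slc37a4 exceeded Slc2a2, at 40.2, in 5, and Pklr exceeded Gys2, both at 34, in 5. Slc2a2 exceeded Pklr in 10 of 12. Ppargc1a was last in every library, at 2.07 CPM per kilobase.

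**Figure D1:**
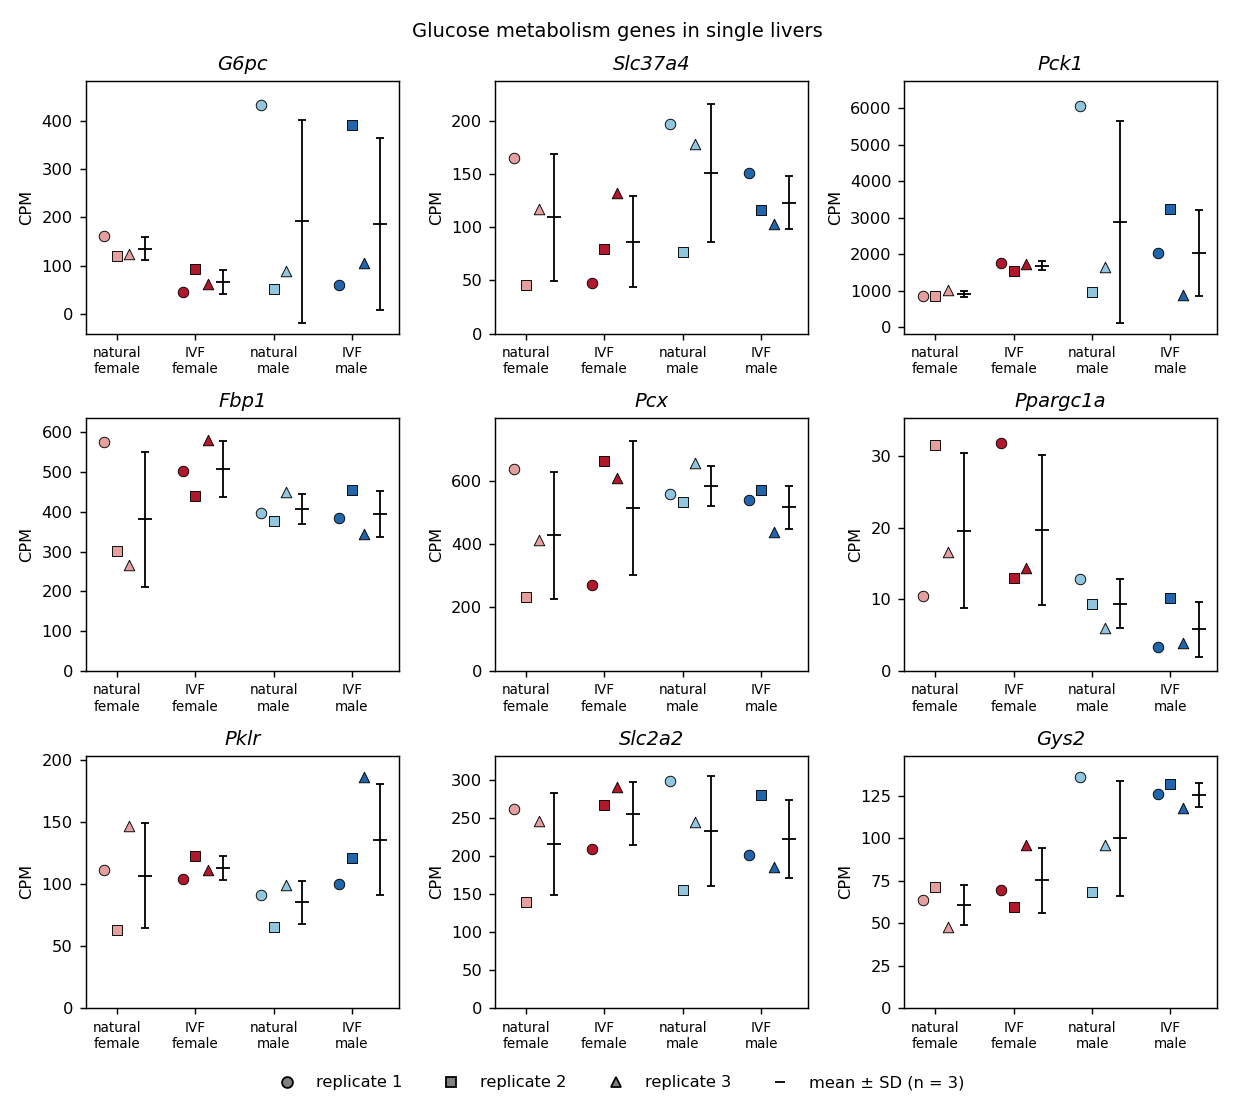
Each panel plots 1 gene's level in CPM (vertical axis, linear) in the 12 livers by group, with the group mean and SD (n = 3) as the bar beside the points. Pck1 is tight within both female groups, while G6pc runs from 44.5 to 92.3 CPM in IVF females. Both genes spread most in males, where natural male replicate 1 reaches 6070 CPM of Pck1 and 433 CPM of G6pc.

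The enzymes of glucose production differed widely in how much they varied between libraries of one group. G6pc had a within-group SD of 1.09 on the log2 CPM scale, higher than 97.2% of the genes tested, and Pck1 had 0.84, higher than 92.5%. Slc37a4 had 0.72 and Ppargc1a 0.74. Fbp1 and Gys2, at 0.34 each, lay below the median of all genes, 0.38. Slc2a2 had 0.40, Pklr 0.42 and Pcx 0.52. These SDs include the 2 shallow female libraries. There Slc37a4, Pcx, Pklr and Slc2a2 were lower, and Ppargc1a higher, than in each of the other 4 female libraries. The part of depth in the SDs was not tested. Across all 12 livers the highest level of G6pc was 9.73 times the lowest, against 2.15 times for Slc2a2.

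IVF females were compared with natural females first. None of the 9 genes passed edgeR's quasi-likelihood test at an adjusted p under 0.05, where 0% of all genes tested were called. No gene of the 9 had an unadjusted p under 0.05 either, against 3.7% of all genes, and DESeq2 and limma voom called none of the 9. For 2 of the 9 the libraries of the groups did not overlap, against 7.42% of all genes. These were G6pc, lower in IVF females, and Pck1, higher. The median log2 fold change of the 9 was 0.25, and that of all genes tested -0.01.

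G6pc encodes the catalytic subunit of glucose-6-phosphatase, which frees glucose for release, and lies on chromosome 11 (101367561 to 101377903, plus strand, GRCm38). It was measured at 44.5, 92.3 and 61.5 CPM in IVF female replicates 1, 2 and 3, and at 162, 119 and 123 CPM in natural females. Every IVF female was thus below every natural female. The means were 66.1 ± 24.2 and 135 ± 23.6 CPM (SD, n = 3 each), a log2 fold change of -1.03 ± 0.77 (SE), with a 95% interval from -2.70 to 0.65 and edgeR's adjusted p at 1. The single spread estimate shared by the 4 groups includes that of the males, in whom G6pc varied most.

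Pck1, on chromosome 2 (173153048 to 173159273, plus strand), encodes the cytosolic phosphoenolpyruvate carboxykinase, the enzyme that turns oxaloacetate into phosphoenolpyruvate. IVF females had 1770, 1540 and 1740 CPM and natural females 863, 871 and 1020 CPM. The lowest IVF female was above the highest natural female, and each group was narrow. The means were 1680 ± 126 and 918 ± 87.5 CPM (SD, n = 3 each), 1.83-fold apart by the model. On the log2 scale this was 0.87 ± 0.59 (SE), with an interval from -0.42 to 2.16 and edgeR's adjusted p at 1.

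Because both genes had no overlap and went opposite ways, the ratio of Pck1 to G6pc was taken per liver, after these values had been seen. It was 39.7, 16.7 and 28.3 in IVF females and 5.32, 7.29 and 8.26 in natural females. The mean log2 ratio was 4.73 ± 0.63 in IVF females and 2.77 ± 0.33 in natural females (SD, n = 3 each), a difference of 1.96 or 3.88-fold. Leaving out each library in turn gave 1.67 to 2.29, and leaving out both shallow libraries gave 1.71. The choice of these 2 genes fixed the direction of the difference in advance, so this range shows its size only. An exact permutation test of the ratio in females gave p = 0.1, the smallest possible with n = 3 each. That p was fixed by the same choice and lends no support. In males the ratio was 33.6, 8.28 and 8.24 after IVF and 14.0, 18.6 and 18.5 after natural conception. The male groups overlapped, with a log2 difference of -0.36, and the natural males were all above the natural females.

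**Figure D2:**
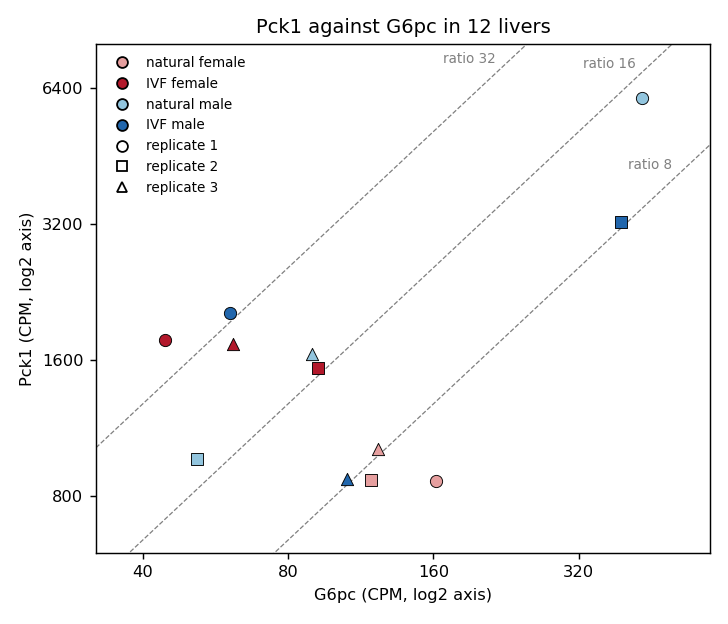
Each point is 1 liver, with G6pc in CPM on the horizontal and Pck1 in CPM on the vertical axis, both log2 axes, and dashed lines at equal ratios of Pck1 to G6pc. The 3 natural females lie at ratios of 5.32 to 8.26 and the 3 IVF females at 16.7 to 39.7, while natural male replicate 1 and IVF male replicate 2 are high in both genes.

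The other 3 genes of glucose production overlapped between the female groups. Pcx encodes pyruvate carboxylase, the mitochondrial enzyme that makes oxaloacetate from pyruvate, on chromosome 19 (4510472 to 4621752, plus strand). IVF females had 271, 663 and 608 CPM and natural females 635, 233 and 413 CPM, with the shallow library lowest in each group. The log2 fold change was 0.27 ± 0.37 (SE; interval -0.54 to 1.08). Fbp1, the liver fructose bisphosphatase on chromosome 13 (62864753 to 62888282, minus strand), had 503, 440 and 581 CPM in IVF females and 577, 302 and 266 CPM in natural females. Natural female replicate 1 lay within the range of the IVF females and the other 2 below it, with a log2 fold change of 0.41 ± 0.28 (SE; interval -0.19 to 1.01). Slc37a4, on chromosome 9 (44396852 to 44402968, plus strand), carries glucose 6-phosphate to G6pc inside the endoplasmic reticulum. It had 47.6, 80.1 and 132 CPM in IVF females and 165, 46 and 117 CPM in natural females, again with the shallow library lowest in each group. Its log2 fold change was -0.33 ± 0.48 (SE; interval -1.39 to 0.72). The ratio of G6pc to Slc37a4 overlapped between the female groups, at 0.464 to 1.15 after IVF and 0.983 to 2.6 after natural conception.

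Ppargc1a, Pklr, Slc2a2 and Gys2 also overlapped between IVF and natural females. Ppargc1a encodes PGC-1 alpha, a coactivator of fasting gene expression and mitochondrial growth, on chromosome 5 (51454250 to 51567726, minus strand). It had 31.8, 13.0 and 14.4 CPM in IVF females and 10.5, 31.6 and 16.6 CPM in natural females, and its log2 fold change was 0.00 ± 0.53 (SE; interval -1.14 to 1.15). The highest library of each group was the shallow one. Pklr, the pyruvate kinase of liver and red cells at the last step of glycolysis, had 104, 123 and 111 CPM in IVF females and 111, 62.7 and 147 CPM in natural females. Its difference on the log2 scale was 0.07 ± 0.31 (SE; interval -0.60 to 0.75), and its direction turned under library size scaling (-0.02) and without the shallow libraries (-0.13). Slc2a2, which encodes the transporter GLUT2 and lies on chromosome 3 (28697903 to 28731359, plus strand), had 209, 267 and 290 CPM in IVF females and 262, 139 and 245 CPM in natural females. The log2 fold change of Slc2a2 was 0.25 ± 0.30 (SE; interval -0.40 to 0.90). Gys2, the liver glycogen synthase on chromosome 6 (142422613 to 142473109, minus strand), had 69.8, 59.6 and 96.3 CPM in IVF females and 63.6, 71.2 and 47.8 CPM in natural females, a log2 fold change of 0.31 ± 0.26 (SE; interval -0.27 to 0.88). The adjusted p-value of each of these genes was 1 in edgeR's test.

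**Figure D3:**
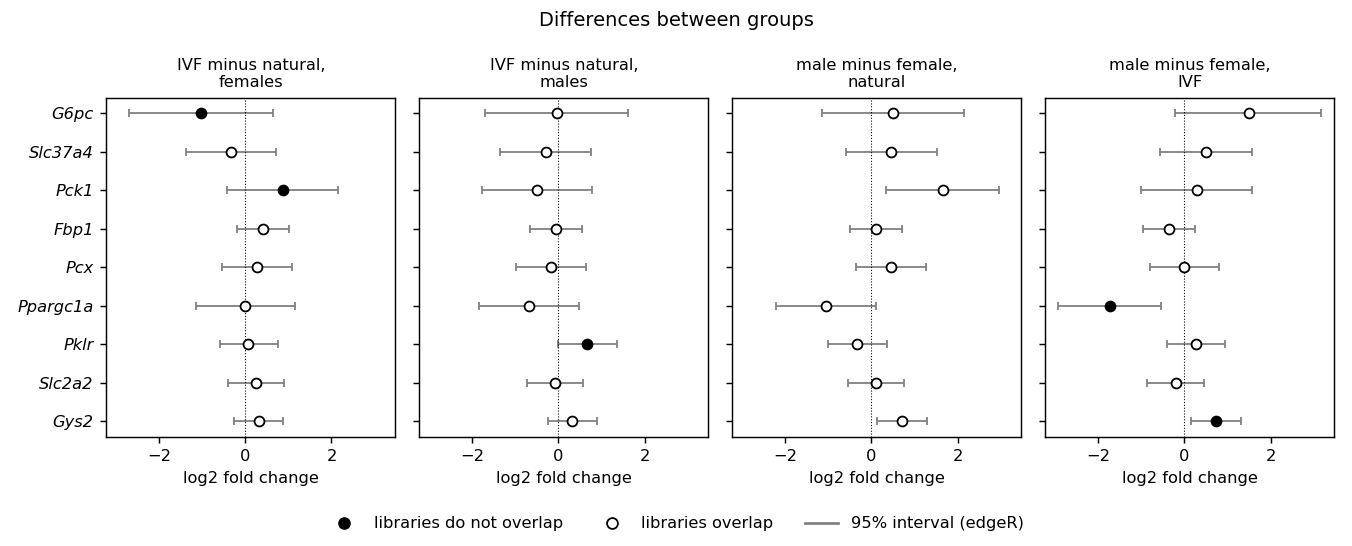
Points are log2 fold changes of the 9 genes from the edgeR model and bars their 95% intervals, in 1 panel per comparison, with filled points where the libraries of the 2 groups do not overlap. Intervals that leave 0 are those of Pck1 and Gys2 between natural males and females, and of Ppargc1a and Gys2 between IVF males and females, none of which passed the adjustment over 13204 genes.

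In males, none of the 9 genes passed in edgeR's test of IVF against natural conception, where 0.00757% of all genes tested were called. None had an unadjusted p under 0.05, against 2.69% of all genes, and DESeq2 and limma voom called none of the 9. The libraries did not overlap for 1 of the 9, Pklr, against 8.91% of all genes. The median log2 fold change of the 9 was -0.07 and that of all genes 0.01. Hepatocyte markers summed to 87900 to 107000 CPM in IVF males and 110000 to 121000 CPM in natural males, and Kupffer cell markers, 6 genes, to 102 to 137 and 164 to 185 CPM. Both sums were lower in IVF males without overlap, and their part in the male values was not tested.

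Pklr lies on chromosome 3 (89136142 to 89146784, plus strand). It was measured at 100, 121 and 186 CPM in IVF males and 91.0, 65.6 and 99.2 CPM in natural males. Every IVF male was above every natural male, though IVF male replicate 1 and natural male replicate 3 were almost level. The means were 136 ± 44.7 and 85.3 ± 17.5 CPM (SD, n = 3 each) a log2 difference of 0.67 ± 0.31 (SE; interval -0.01 to 1.35), with an unadjusted p of 0.0527 and edgeR's adjusted p at 1. The annotation gives Hcn3, on the opposite strand, 711 bases of exon in common with Pklr. Whether the counting used strand is not given in the sources used here, so that reads of these genes may not be told apart. Since Pklr also serves red cells, erythroid markers were read beside it: 4 genes, of which 2 passed the filter on low counts, summed to 175, 25.7 and 23.6 CPM in IVF males and 57.3, 40.1 and 23.6 CPM in natural males. Their part in the Pklr values was not tested.

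In males, G6pc and Pck1 were highest in the same liver of each group. G6pc had 60.6, 391 and 106 CPM in IVF males and 433, 51.9 and 89.5 CPM in natural males. IVF male replicate 2 and natural male replicate 1 stood far above the other livers of their groups, and the groups overlapped. The log2 fold change was -0.04 ± 0.76 (SE; interval -1.70 to 1.61). Without natural male replicate 1 it was 1.39, and without IVF male replicate 2 it was -1.20. Pck1 had 2030, 3230 and 873 CPM in IVF males and 6070, 966 and 1650 CPM in natural males, with the same livers highest and IVF male replicate 1 at an intermediate level. Its log2 fold change of -0.50 ± 0.59 (SE; interval -1.78 to 0.78) became 0.64 without natural male replicate 1 and -1 without IVF male replicate 2.

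The other genes overlapped between the male groups. Pcx had 539, 569 and 438 CPM after IVF and 559, 533 and 654 CPM after natural conception. Fbp1 had 384, 456 and 343 against 396, 378 and 450 CPM. Slc37a4 had 151, 116 and 103 against 197, 76.7 and 179 CPM. For each of the 3, at least 1 IVF male lay within the range of the natural males. Their log2 fold changes were -0.17, -0.05 and -0.29, and the widest of the 3 intervals, that of Slc37a4, ran from -1.35 to 0.76. Slc2a2 had 201, 280 and 185 CPM in IVF males and 298, 155 and 244 CPM in natural males, a log2 fold change of -0.07 ± 0.30 (SE). Gys2 had 126, 132 and 118 CPM against 136, 68.5 and 95.9 CPM. The IVF males were the narrowest group for Gys2 and lay inside the range of the natural males, at 0.32 ± 0.26 (SE; interval -0.25 to 0.90). Ppargc1a had 3.30, 10.2 and 3.85 CPM in IVF males and 12.8, 9.34 and 6.01 CPM in natural males. The 2 lowest livers for Ppargc1a were IVF males, and its log2 fold change was -0.69 ± 0.53 (SE; interval -1.85 to 0.48).

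The difference between the sexes in the IVF effect was tested as an interaction. No gene of the 9 passed, and edgeR called 0% of all genes tested. None had an unadjusted p under 0.05, against 3.87% of all genes. The largest in size was that of Pck1, at -1.38 ± 0.83 (SE; interval -3.19 to 0.44, unadjusted p = 0.125, adjusted p = 1 in edgeR's test). For G6pc it was 0.98 ± 1.10 (SE; interval -1.37 to 3.33) and for Pklr 0.60 ± 0.44 (SE; interval -0.36 to 1.55). The design thus gave no call of an effect of IVF that differed by sex, and the intervals hold differences of more than 2-fold for these 3 genes.

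Males and females were compared within each mode of conception. Among naturally conceived mice, edgeR called 1.77% of all genes tested and 0 of the 9. At an unadjusted p under 0.05 there were 2 of the 9, Pck1 and Gys2, both higher in males, against 14.9% of all genes. None of the 9 was without overlap, against 20% of all genes. Among IVF mice, 2.19% of all genes and 0 of the 9 were called. The unadjusted p was under 0.05 for Gys2 and Ppargc1a, against 14.9% of all genes, and these same genes were without overlap, against 21.8% of all genes. The comparisons in natural and in IVF mice share no libraries. Kupffer cell markers, 6 genes, summed to 102 to 185 CPM in males and 198 to 298 CPM in females, and 4 lymphocyte markers to 5.51 to 10.2 and 12.2 to 19.6 CPM. In IVF males and IVF females, stellate markers summed to 149 to 195 and 230 to 267 CPM, without overlap. Sinusoidal endothelial markers (136 to 149 and 156 to 204) and erythroid markers (23.6 to 175 and 6.61 to 20.5) did not overlap either. The stellate, endothelial and erythroid sums overlapped between natural males and natural females. The 10 hepatocyte markers summed to 110000 to 129000 CPM in IVF females and 87900 to 107000 CPM in IVF males, without overlap. Between natural females and natural males their sums overlapped. Alb was the largest part of this sum, with a mean of 77000 CPM in IVF females and 49100 CPM in IVF males. Of the 10 markers, 6 were higher in IVF males than in IVF females, with a median log2 fold change of 0.19. The part of these cells in the sex differences was not tested.

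The mean of Gys2 was higher in males of both kinds, without passing the adjustment. Natural males had 100 ± 34 CPM and natural females 60.9 ± 11.9 CPM (SD, n = 3 each), a log2 fold change of 0.72 ± 0.26 (SE; interval 0.14 to 1.30) with edgeR's adjusted p at 0.223. The lowest natural male, at 68.5 CPM, was below the highest natural female, at 71.2 CPM. IVF males had 125 ± 6.79 CPM and IVF females 75.2 ± 19.0 CPM (SD, n = 3 each), with no overlap, a log2 fold change of 0.74 ± 0.26 (SE; interval 0.16 to 1.31) and edgeR's adjusted p at 0.21.

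The mean of Ppargc1a was lower in males, also without passing it in edgeR's test. IVF males had 3.30 to 10.2 CPM and IVF females 13.0 to 31.8 CPM, and the groups did not overlap. The log2 fold change was -1.74 ± 0.54 (SE; interval -2.93 to -0.55), 3.34-fold lower, with an unadjusted p of 0.00786 and edgeR's adjusted p at 0.146. DESeq2 gave an adjusted p-value of 0.0252, the lowest of all alternatives, which reached 0.413. Without both shallow female libraries the log2 fold change was -1.26 ± 0.46 and edgeR's adjusted p was 0.2. Natural males, at 6.01 to 12.8 CPM, overlapped natural females, at 10.5 to 31.6 CPM, with a log2 fold change of -1.05 ± 0.53 (SE; interval -2.21 to 0.11) and an adjusted p-value of 0.381.

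Pck1 differed most between natural males and females by the model, and 1 liver set the size. Natural males had 966 to 6070 CPM and natural females 863 to 1020 CPM, which overlap. The log2 fold change was 1.66 ± 0.60 (SE; interval 0.34 to 2.97), with edgeR's adjusted p at 0.218, and without natural male replicate 1 it was 0.52, with an adjusted p-value of 0.686, the highest of all alternatives, where 0.0669 was the lowest. Among IVF mice the difference was 0.28 ± 0.59 (SE; interval -1 to 1.56). G6pc was 0.50 ± 0.76 higher in natural males and 1.49 ± 0.77 higher in IVF males on the log2 scale (SE). These became -0.93 without natural male replicate 1 and 0.33 without IVF male replicate 2. Fbp1, Pcx, Slc37a4, Pklr and Slc2a2 had log2 differences between -0.36 and 0.50 in both comparisons, all with adjusted p-values of at least 0.599.

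The depth of the female libraries moved with several of these genes. In the 2 shallow libraries, Slc37a4 was lower than in each of the other 4 female livers, by -1.35 on the log2 scale. Pcx differed by -1.18, Pklr by -0.60 and Slc2a2 by -0.64, also with no overlap. Ppargc1a was higher in both than in the other 4, by 1.23, at a mean of 31.7 against 13.6 CPM. G6pc (-0.50), Fbp1 (-0.19), Pck1 (0.00) and Gys2 (0.12) overlapped. The same difference had a median of 0.33 over the fifth of genes with the lowest GC content and -0.57 over the fifth with the highest. Pcx, at 57.7% GC, and Slc37a4, at 55.5%, were above the median GC content of 50%, and Ppargc1a, at 41.7%, was below it, but so was Slc2a2, also at 41.7%. One shallow library lay in each female group, and the part of depth in the female values was not tested. The share of all genes without overlap between the 2 shallow and the other 4 female libraries was not taken. Whether the genes named here stand out from all genes in this respect was therefore not tested.

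**Figure D4:**
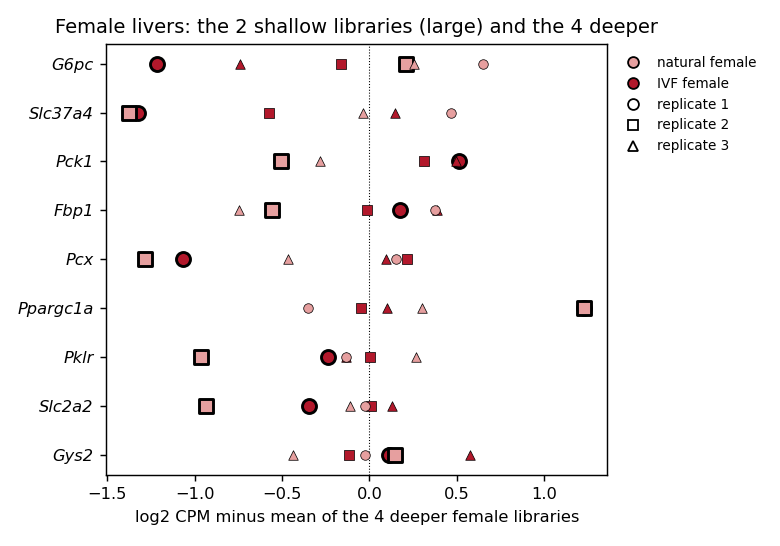
The horizontal axis is log2 CPM of each female liver minus the mean of the 4 deeper female libraries, with 1 row per gene and large outlined symbols for the 2 shallow libraries. Both large symbols lie left of the 4 others for Slc37a4, Pcx, Pklr and Slc2a2 and right of them for Ppargc1a, where they nearly coincide.

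Over the 12 livers, 36 pairs of the 9 genes were correlated on log2 CPM, with permutation p-values from 100000 resamples. The resamples shuffled livers across all 4 groups, so differences between group means enter r and its p-value. Pearson's r was above 0 for 28 pairs, and none had a Benjamini-Hochberg adjusted p under 0.05. G6pc and Pck1 had r = 0.52 (permutation p = 0.0786, adjusted 0.295) and Spearman's rho = 0.00 (permutation p = 1, adjusted 1). Without IVF male replicate 2 and natural male replicate 1, the 2 livers farthest from the median of G6pc, r was -0.64, so the positive r rests on those livers. The highest r was that of Slc37a4 with Pcx, 0.78 (permutation p = 0.00435, adjusted 0.157; rho = 0.57, permutation p = 0.0597, adjusted 0.358). It was 0.22 without the 2 shallow libraries, which were also the 2 farthest from the median. With group means removed, over all 12 livers and with no p-value, r was 0.80 for this pair and 0.77 for G6pc with Pck1. The highest r by that measure was that of Slc37a4 with Slc2a2, 0.86. With group means kept, r of this pair was 0.65 over all 12 livers and 0.50 without the 2 shallow libraries. The measure with group means removed was not taken without any liver. Pck1 and Gys2 had r = 0.65 (permutation p = 0.0199, adjusted 0.204; rho = 0.64, permutation p = 0.0287, adjusted 0.358), and 0.37 without IVF male replicate 2 and natural male replicate 1.

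Genes with the pattern most like Pck1 and G6pc were sought by Pearson's r of log2 CPM over the 12 libraries, among the 7362 genes that averaged 10 CPM or more. For Pck1 the highest were Tnfrsf1b (0.94), Klf15 (0.94), Acer2 (0.93), Arrdc2 (0.91) and Lpin2 (0.90). Klf15, a zinc finger factor that acts on amino acid breakdown and gluconeogenesis, ran from 71.4 to 273 CPM and was highest in natural male replicate 1, the liver with the most Pck1. For G6pc the highest were Thoc3 (0.89), Elk4 (0.87), Mbtd1, Irf2bp2 and Arl4d (0.85 each). No gene was among the 5 most like both. These genes were picked for their r, which is a description.

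The rest of the pathway was taken from 8 lists of genes. In IVF against natural conception edgeR, DESeq2 and limma voom called 0 genes in each list in females and in males. The lists were 21 tested genes of the reversible steps and carriers, 24 of glycolysis and pyruvate use, 10 glucose transporters, 23 of glycogen, 33 regulators, 16 fasting-responsive genes, 11 fed-state genes and 16 of the clock. In females the unadjusted p was under 0.05 for 2 glycogen genes, 1 regulator, 2 fed-state genes and 5 clock genes, where all genes tested gave 3.7%. In males it was so for 1 transporter, 1 regulator, 2 fasting-responsive genes, 1 fed-state gene and 1 clock gene, where all genes tested gave 2.69%. The median log2 fold change in females was 0.54 over the fed-state list and -0.36 over the fasting-responsive list. Fed-state genes summed to 8100, 998 and 3160 CPM in IVF females and 1370, 879 and 4350 CPM in natural females, so the groups overlapped and the highest sum was that of IVF female replicate 1, a shallow library. The same liver was highest for Thrsp, a lipogenic gene, with 498, 59.7 and 148 CPM in IVF females against 11, 19.8 and 96.3 CPM, again with overlap (2.47 ± 0.90, SE, unadjusted p = 0.0183). Beside Gys2 in the glycogen list, Ppp1r3c, a subunit that targets a phosphatase to glycogen, was at 29.7, 67.3 and 48.9 CPM in IVF females and 101, 142 and 71.3 CPM in natural females. These groups did not overlap, at -1.10 ± 0.36 (SE, unadjusted p = 0.00939, adjusted p = 1 in edgeR's test). The lowest IVF female, at 29.7 CPM, and the highest natural female, at 142 CPM, were the shallow libraries. The log2 fold change ran from -1.41 to -0.82 leaving out 1 library, and up to -0.55 over all alternatives. The part of depth in this difference was not tested.

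Clock genes were set beside Pck1, since the collection time is not given. Arntl, which encodes the activator BMAL1, was at 15.5, 22.2 and 4.23 CPM in natural females and 4.30, 6.69 and 2.91 CPM in IVF females, and at 2.10 to 2.85 CPM in males. Its log2 fold change in females was -1.57 ± 0.48 (SE, unadjusted p = 0.00725), and the groups overlapped. Per1, a repressor of the clock, was at 3.13, 4.55 and 13.6 CPM in natural females and 29.7, 28.8 and 19.7 CPM in IVF females, with no overlap. Its log2 fold change was 1.87 ± 0.64 (SE, unadjusted p = 0.0129), that of Per3 was 1.42 ± 0.45 (SE, unadjusted p = 0.00855), and the adjusted p-values were 1 in edgeR's test. The female group with less Pck1 thus had less Per1 and, in 2 of 3 livers, more Arntl than any other liver. Their part in the Pck1 and G6pc values was not tested.

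**Figure D5:**
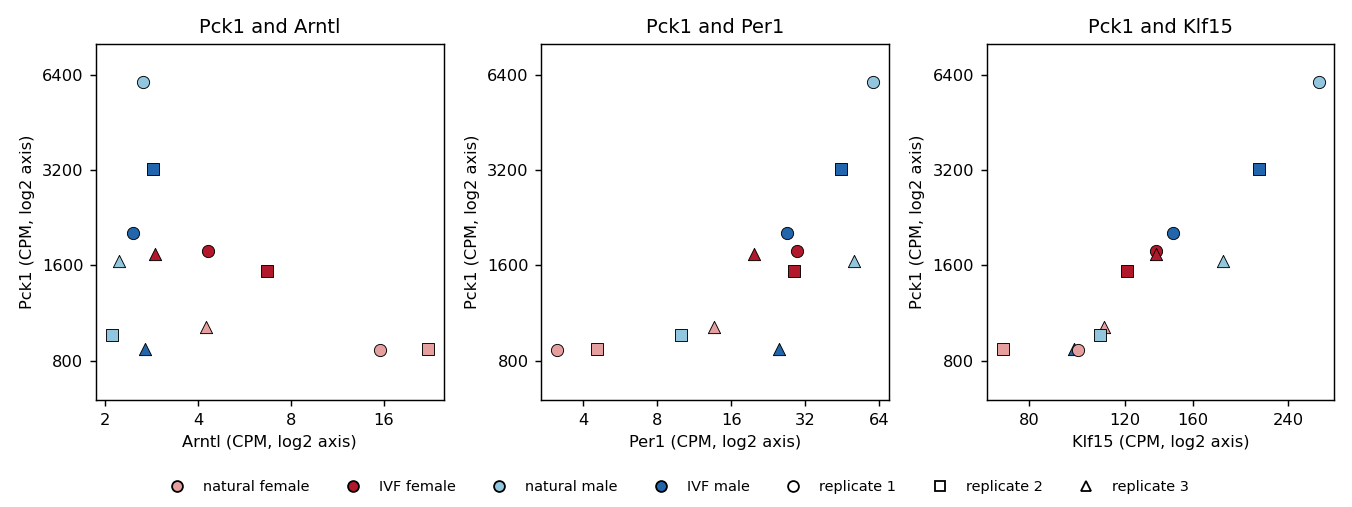
Pck1 in CPM (vertical, log2 axis) is plotted for the 12 livers against Arntl, Per1 and Klf15 in CPM (horizontal, log2 axes). Natural female replicates 1 and 2 stand apart at 15.5 and 22.2 CPM of Arntl, and livers with more Klf15 have more Pck1 (r = 0.94).

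Between the sexes, edgeR called 4 genes of the 8 lists among natural mice and 1 among IVF mice, of 151 tested, where 1.77% and 2.19% of all genes were called. DESeq2 called 13 and 5 of the 151, against 5.13% and 5.46% of all genes. Limma voom called 4 and 1, against 1.76% and 2.11%. Its calls among natural mice were Pfkfb3, Stbd1, Cyp4a10 and Per2. The last 2 were not called by edgeR: Cyp4a10, a fatty acid hydroxylase, was at -4.11 ± 0.98 (SE, adjusted p = 0.0627) and Per2, a clock repressor, at 1.78 ± 0.43 (SE, adjusted p = 0.0651). Pfkfb3, a kinase and phosphatase that sets the glycolytic activator fructose 2,6-bisphosphate, was higher in natural males, at 64, 28.6 and 37.9 CPM against 4.25, 6.35 and 8.86 CPM in natural females. The difference was 2.75 ± 0.40 on the log2 scale (SE, adjusted p = 0.00429 in edgeR's test), and 1.91 ± 0.39 (SE, adjusted p = 0.0273) among IVF mice. Stbd1, a glycogen-binding protein, was higher in natural males by 1.77 ± 0.28 (SE, adjusted p = 0.00694) and was not called by edgeR among IVF mice (1.10, adjusted p = 0.0708), where DESeq2 called it (adjusted p = 0.00817). Arntl was lower in natural males, at -2.57 ± 0.50 (SE, adjusted p = 0.0244), and Asns, an asparagine synthetase, was higher by 4.18 ± 0.90 (SE, adjusted p = 0.0394), with overlap and at most 18 counts in any natural female. Among natural mice the calls of Pfkfb3 and Stbd1 held in all alternatives, with adjusted p-values of up to 0.0237 and 0.0388. Arntl was not called by voom, in the fit to the groups compared, without both shallow libraries, or without any 1 of natural female replicates 1 and 2 and the natural males (adjusted p up to 0.123). Asns was not called by voom, in the fit to the groups compared, without both shallow libraries, or without any 1 library other than natural female replicate 3 and natural male replicate 1 (adjusted p up to 0.194). Among IVF mice Pfkfb3 was not called without replicate 2 or 3 of either sex (adjusted p up to 0.125). Whether these sex differences differ between modes of conception is the interaction, in which edgeR called no gene.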

How the data were processed

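The deposited table held whole-number read counts per gene symbol, 1 column per library, assigned by title. Per the submitters' processing notes, the authors used Trimmomatic 0.32, STAR 2.3.0e, featureCounts 1.5.0 and the build mm10. Use of strand and treatment of multi-mapping reads are not given in the sources used here. Genes were tested with the quasi-likelihood F test of edgeR 4.0.16 in R 4.3.3: filterByExpr by group, TMM, 1 model of 4 group means over 12 libraries, Benjamini-Hochberg adjustment over 13204 genes, called under 0.05. Standard errors are the fold change over the root of F, and intervals use the model's degrees of freedom. Log2 CPM used a prior count of 2. Positions and exon lengths are from GENCODE M21 (GRCm38) and promoters from RefSeq (GRCm38.p6). The model code was checked on simulated counts.

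The 9 genes and all lists were chosen with earlier results of these data known. Other genes were named if called, or if among the 3 of smallest unadjusted p of their list in a comparison described. Alternatives were other scalings and filters, DESeq2 1.42.0, limma 3.58.1 voom, fits to the groups compared, and leaving out libraries. Replicate numbers follow accession order and pair no samples. The titles of IVF female replicate 1 and IVF male replicate 2 share a number whose meaning the labels do not give; if it marks a litter, the comparison of IVF males and females and the interaction hold 1 related pair. No label names litters, so p-values measure the spread between these samples only.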

Additional observations from a re-analysis of the deposited data

Results flagged for a closer look

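Mlxipl, which encodes the glucose-sensing factor ChREBP, an activator of Pklr, was the only one of 160 tested genes of glucose metabolism and its regulation, the 9 included, whose libraries did not overlap between IVF and natural conception in both sexes and in opposite directions. Of all 13204 genes tested, 78 did so (0.591%), close to the 0.625% that 1 of 160 makes. Females had 189, 142 and 142 CPM after IVF and 217, 190 and 294 CPM after natural conception, a log2 fold change of -0.57 ± 0.23 (SE). Males had 126, 213 and 191 CPM after IVF and 114, 124 and 120 CPM after natural conception, 0.57 ± 0.23 (SE). The closest livers, 189 and 190 CPM in females, were the 2 shallow libraries, and 126 and 124 CPM were the closest in males. The difference between the sexes was 1.13 ± 0.33 (SE), with an unadjusted p of 0.00517 and 1 after edgeR's adjustment over all genes. Mlxipl was picked for going opposite ways in females and males. That choice fixed the sign of this difference and favoured a small unadjusted p, so neither counts as a test. Pklr itself was higher without overlap in IVF males and overlapped in females. A link of Mlxipl to the Pklr values was not tested.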

How the results depend on the processing

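Over the alternatives and comparisons, 891 values of the 9 genes were refitted. Of these, 846 were counted as keeping their direction and side of the threshold, and 44 as changing sign. The remaining 1 passed the threshold (Ppargc1a between IVF males and females with DESeq2, adjusted p = 0.0252). A main value that rounds to 0.00 could not be counted as changing sign. The 846 thus include all values of Ppargc1a in females (-0.48 to 0.52) and of Pcx between IVF males and females (-0.34 to 0.23). None of the 9 was called under any other alternative. DESeq2's Wald test called 4 genes of all tested in females (0 by edgeR), 5 in males (1), 678 between natural males and females (234), 721 between IVF males and females (289) and 9 for the interaction (0). Limma voom called 0 in males. For natural males and females, library size alone called 510 and a fit to those groups alone 139. Leaving out 1 library gave 0 to 1 calls in males, 111 to 263 between the sexes in natural mice and 137 to 348 in IVF mice.

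With library size alone the median of all genes moved to -0.34 between natural males and females, to 0.14 for IVF in males and to 0.23 for the interaction. Under it the log2 fold change changed sign for Pklr in females (-0.02), for G6pc (0.06), Fbp1 (0.08) and Slc2a2 (0.06) for IVF in males, and for Fbp1 (-0.20) and Slc2a2 (-0.21) between natural males and females. Voom gave G6pc 0.10 for IVF in males and -0.08 between natural males and females. Without the 2 shallow libraries Pklr was -0.13 in females, Fbp1 -0.05 and Slc2a2 -0.14 between natural males and females, and Gys2 -0.18 for the interaction. The cause was not tested.

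Leaving out 1 library, signs changed within these ranges: in females, Slc37a4 -0.78 to 0.09, Pcx -0.03 to 0.67 and Pklr -0.20 to 0.39; for IVF in males, G6pc -1.20 to 1.39, Pck1 -1 to 0.64, Fbp1 -0.17 to 0.04 and Slc2a2 -0.30 to 0.15. Between natural males and females they were G6pc -0.93 to 0.95, Fbp1 -0.10 to 0.53 and Slc2a2 -0.12 to 0.32. Between IVF males and females they were Pck1 -0.21 to 0.65 and Pklr -0.03 to 0.45. For the interaction they were G6pc -0.18 to 2.42, Slc37a4 -0.39 to 0.48 and Gys2 -0.20 to 0.30. Around main values of 0.00, Ppargc1a in females ran from -0.48 to 0.52 and Pcx between IVF males and females from -0.34 to 0.23. No paired analysis was possible because replicates are numbered by accession order here, and the number that 2 titles share (IVF female replicate 1 and IVF male replicate 2) joins a single pair and has no stated meaning.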
